A study of Mus musculus with 6 samples.

Results

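The Rab GTPases are small GTPases that direct membrane traffic, and they were followed here as the genes whose single symbol in the array annotation is Rab, a number and at most a letter from a to d. The rule took 59 genes of the 18193 measured and 132 probe sets of the 45037 that are not array controls. A probe set is a group of short oligonucleotides meant to report on one transcript or on several similar ones. More than 1 is present for 38 of the 59 genes, and how specific each probe set is was not tested. RNA came from C2C12, mouse myoblasts that fuse into myotubes when they differentiate. Stable pools expressed either a hairpin RNA (shRNA) directed at PRDM2, a PR/SET domain protein of the nucleus, or one directed at GFP as the control. Both were held with 20% fetal calf serum for 48 hours in methylcellulose, which the labels describe as arrest in G0, and each was hybridized to 3 Affymetrix arrays. The labels call the arrays of a group biological replicates of its pool without saying that they came from separate transfections, so the p-values measure only the spread between these samples.

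A Rab protein is a switch. Bound to GTP it sits on one kind of membrane and recruits effectors such as tethers and motor adaptors, and bound to GDP it is drawn off the membrane by a GDI protein. Guanine nucleotide exchange factors (GEFs) turn a Rab on, GTPase activating proteins (GAPs) turn it off, and lipid groups added by a prenyl transferase hold it in the bilayer. In muscle or fat cells, Rab8a, Rab10, Rab13 and Rab14 are known for moving the glucose transporter GLUT4 to the surface. The GAPs Tbc1d1 and Tbc1d4 control this step. Rab35 is known for cadherin traffic during myoblast fusion.

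In the Rab family a single gene passed the test in each direction between knockdown and control. Rab40b rose and Rab27b fell, and the other 57 did not pass. A gene passed at a limma adjusted p under 0.05 on quantile normalized log2(intensity + 16), with Benjamini-Hochberg adjustment over all 18193 genes. The 2 genes are 3.39% of the family, where 5.16% of all genes passed (2.96% up and 2.19% down). So small a count is not read as a difference between these shares. The median log2 difference of the 59 was -0.02, with quartiles of -0.16 and 0.20, against -0.004 with quartiles of -0.14 and 0.13 over all genes. On single arrays the family's median relative to the control mean lay between -0.02 and 0.02 in the control and between -0.0018 and 0.04 in the knockdown. At an unadjusted p under 0.05 stood 14 of the 59 (23.7%), 7 in each direction, against 15.8% of all genes. That count was 6 without knockdown array 1, 9 without knockdown array 2, 8 without control array 3 and 7 with the filter on low values, which left 42 Rab genes. It was 13 with a median shift and with an offset of 64, and 15 with array weights and with the spike batch block. The share of all genes at these settings was not counted. The 3 knockdown intensities lay above all control intensities for 11 Rab genes (18.6%, against 12.4% of all genes) and below them for 5 (8.47%, against 8.72%), so 27.1% of the family had groups apart where 21.1% of all genes did. For 17 of the 59 both group means were under an intensity of 16, where the offset makes differences small, and 42 had a higher group mean of 16 or more.

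**Figure D1:**
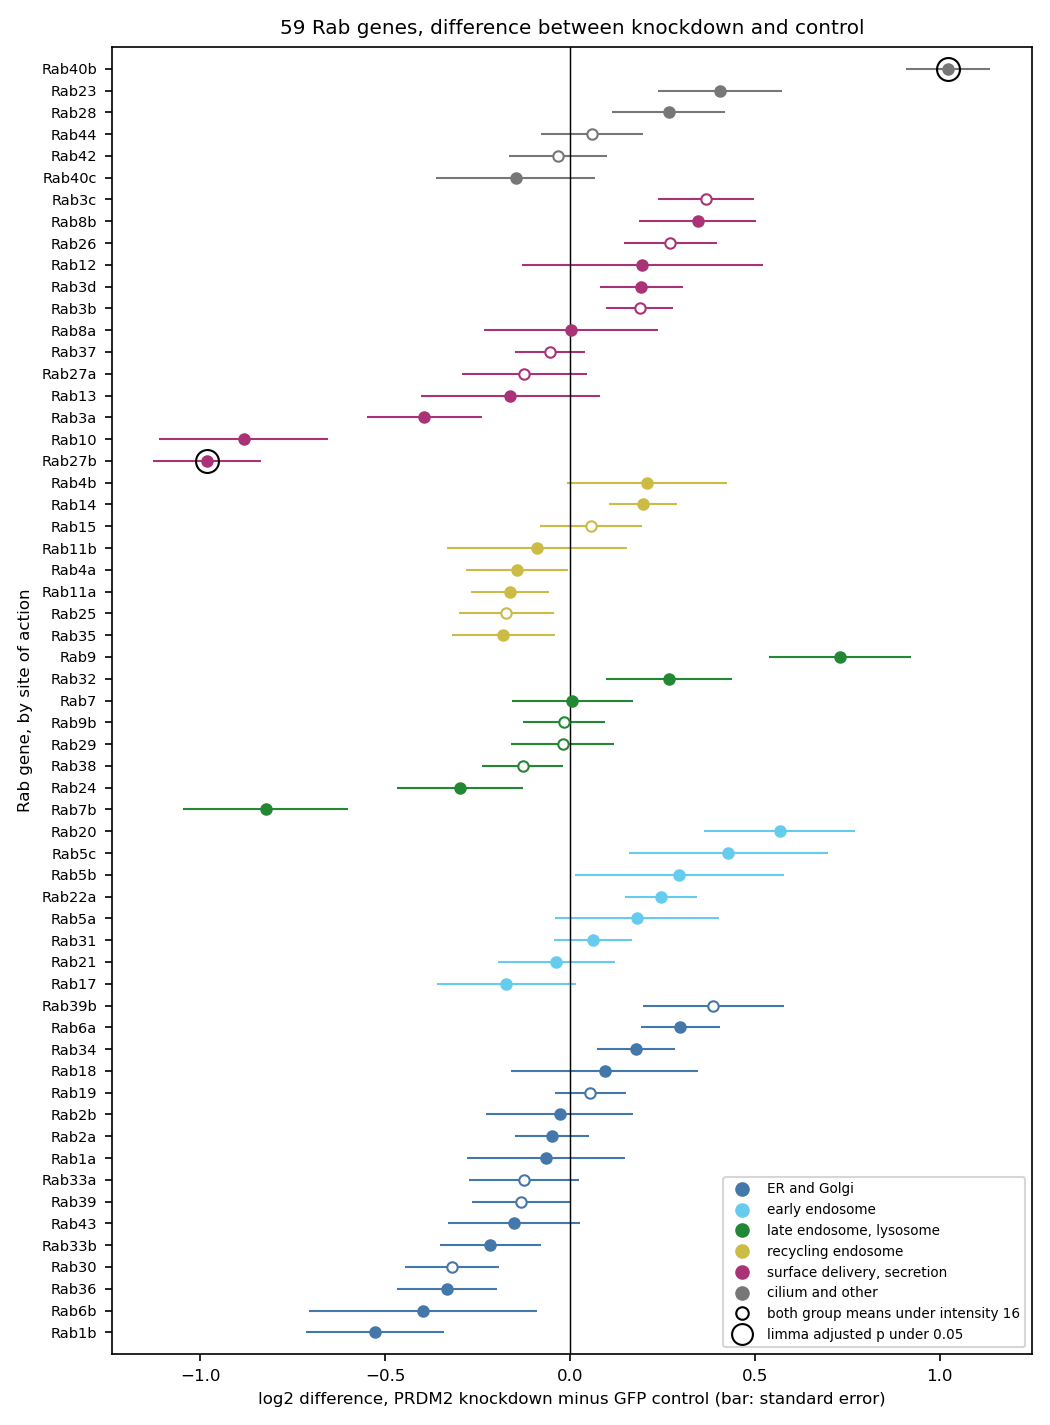
The log2 difference of knockdown minus control (x axis, normalized values with the offset of 16) for each of the 59 Rab genes (y axis), coloured by site of action, with bars of 1 standard error and open points where both group means were under an intensity of 16. Rab40b at 1.02 and Rab27b at -0.98 are ringed as past the test, and the next largest differences are Rab10 at -0.88, Rab7b at -0.82 and Rab9 at 0.73.

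The promoters of Rab40b, the gene that rose, and of Rab10 and Rab9, whose differences were the largest among the genes with a promoter in the table that did not pass, are given from RefSeq (GRCm38.p6), from 250 bases before to 10 after the gene's start. All are 5′ to 3′ on the minus strand. Capitals mark the E-box CANNTG, the letters that myogenic and other basic helix-loop-helix factors are known to bind. As a pattern CANNTG matches at the same place on both strands, although the letters of a single site can differ between them. The Rab40b window is chr11:121388242-121388501, that of Rab10 chr12:3309960-3310219 and that of Rab9 chrX:166479858-166480117.
Rab40b: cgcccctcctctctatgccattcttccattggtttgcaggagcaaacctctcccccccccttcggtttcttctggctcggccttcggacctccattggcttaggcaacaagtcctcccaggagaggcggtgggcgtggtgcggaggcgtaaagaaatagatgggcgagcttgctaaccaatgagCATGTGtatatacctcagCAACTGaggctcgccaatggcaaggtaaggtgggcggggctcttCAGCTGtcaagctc
Rab10: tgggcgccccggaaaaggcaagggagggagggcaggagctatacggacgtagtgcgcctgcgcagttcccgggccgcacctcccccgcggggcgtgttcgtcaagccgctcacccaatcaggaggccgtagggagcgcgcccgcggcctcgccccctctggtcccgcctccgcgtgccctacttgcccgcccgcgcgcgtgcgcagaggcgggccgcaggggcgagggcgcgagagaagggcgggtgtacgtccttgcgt
Rab9: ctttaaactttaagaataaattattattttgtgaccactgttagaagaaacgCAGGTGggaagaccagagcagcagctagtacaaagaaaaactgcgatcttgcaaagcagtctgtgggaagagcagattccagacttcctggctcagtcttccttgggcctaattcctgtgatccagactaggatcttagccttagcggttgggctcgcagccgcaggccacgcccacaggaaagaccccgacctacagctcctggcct

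The Rab40b window holds 3 E-boxes, which begin 66, 48 and 4 bases before the start, and the one nearest the start reads CAGCTG. It also holds 4 copies of CCAAT on either strand. The Rab10 window holds 0 E-boxes and 36 CpG dinucleotides, and that of Rab9 holds 1 E-box, CAGGTG, and 7 CpG. RefSeq promoters were matched for 48 of the 59 Rab genes, 60 windows in all because some genes have several starts. Of these 60, 66.7% hold CANNTG, against 67.7% of all 32851 windows of the same length, and 18.3% hold CAGCTG, which is one of the forms of CANNTG, against 13.5%. At least 3 copies of CANNTG stand in 11.7% of the Rab windows and in 13.3% of all windows. CACGTG, another form of CANNTG, is in 10% against 6.34%, CCAAT on either strand in 40.0% against 34.6%, and TATAAA on either strand in 6.67% against 12.7%. The Rab windows have a median of 16 CpG dinucleotides and 60.4% G and C, where all windows have 6 and 52.3%. These are counts of letters, and no factor's binding was measured.

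Rab40b was more than 3 times as bright in knockdown as in control cells. It encodes one of the Rab proteins with a SOCS box, the domain that links them to a cullin ubiquitin ligase. Its representing probe set, 1436566_at, read 13.3, 12.9 and 7.51 in the control and 37.2, 42.8 and 37.7 in the knockdown, always in the order of arrays 1 to 3. Every knockdown array was well above every control array. The means were 11.2 ± 3.24 and 39.2 ± 3.12 (SD, n = 3 each), so the knockdown stood at 349% of the control in intensity. The normalized values with the offset differed by 1.02 log2 units (SE 0.113, limma adjusted p = 0.00407), which is 2.03-fold. The fold depends on the offset, since the control lies under it: the log2 difference was 1.76 with an offset of 1 and 0.45 with 64. The exact two-sided permutation p was 0.1, the least that 3 arrays against 3 can give. The other Rab40b probe set, 1425756_at, was near background, at 2.08 ± 1.06 and 3.65 ± 3.34, and differed by 0.11. Rab40c, which also has a SOCS box, had means of 112 ± 23.6 and 107 ± 21.6 and differed by -0.15 (limma adjusted p = 0.854).

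Rab27b fell to less than 40% of the control intensity. With Rab27a it is known for docking secretory granules and multivesicular bodies at the plasma membrane. Its representing probe set, 1417214_at, read 57.0, 74.0 and 39.1 on the control arrays and 17.7, 25.4 and 20.0 on the knockdown arrays. All knockdown values were below all control values, and the control values spread more. The means were 56.7 ± 17.4 and 21.0 ± 3.99 (SD, n = 3 each), which puts the knockdown at 37.1%. A log2 difference of -0.98 (SE 0.146, limma adjusted p = 0.0127) came with an exact two-sided permutation p of 0.1. A second probe set, 1439610_at, read 39.4, 55.1 and 52.0 in the control and 19.3, 22.7 and 15.1 in the knockdown, and it passed in the fit over all probe sets as well (log2 difference -0.92, SE 0.14, limma adjusted p = 0.0275). In that fit 1439610_at lost its call in 11 of 17 alternatives and 1417214_at in 9, and with any 1 array left out at most 1 of the pair passed. The remaining pair, 1417215_at and 1443764_x_at, had both means under 16 and differed by -0.25 and -0.14. The gene's limma adjusted p became 0.0578 without control array 1 and 0.0677 or 0.0594 when knockdown array 1 or 3 was left out, and it was 0.0508 on the 4 arrays of higher spike signal and 0.103 with ordinary statistics. All 4 probe sets of Rab27a had both means under 16.

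**Figure D2:**
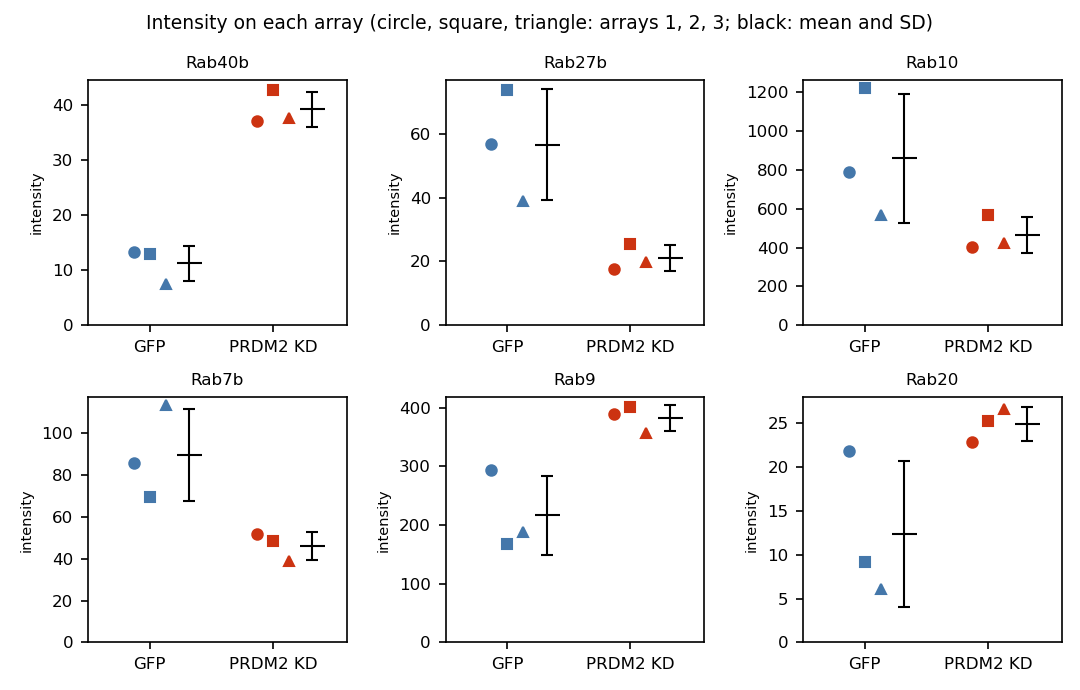
Deposited intensity (y axis, linear from 0) on each control (GFP, blue) and knockdown (PRDM2 KD, red) array for 6 Rab genes, with the mean and SD of each group in black. The groups lie apart for Rab40b, Rab27b, Rab7b, Rab9 and Rab20, while for Rab10 knockdown array 2 at 569 exceeds control array 3 at 567.

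On the same arrays the markers of muscle differentiation and of proliferation changed between the groups. Of 12 differentiation markers such as Myog and Myh3, 11 rose, and their summed intensity was 309 to 609 in the control and 10010 to 12220 in the knockdown. All 7 measured proliferation markers fell, with sums of 674 to 947 and 75.8 to 113. Melanocyte markers, a cell type that relies on Rab27a and Rab38, summed to 69.2 to 87.2 and 102 to 120. Mitf alone among these passed (log2 difference 0.60), and the other 5 of 6 were under 16 on every array. Neuron markers summed to 279 to 368 and 45.3 to 54.4, where Nefl and Tubb3 fell and 3 of 6 stayed under 16. Macrophage markers summed to 558 to 650 and 372 to 447, with 0 of 6 past the test and Ptprc, their pan-leukocyte marker, at 2.49 or less. Adipocyte and endothelial sums overlapped between groups. In bulk RNA fewer cells of a type and less RNA per cell cannot be told apart, and the part of these shifts in the Rab differences was not tested.

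The shRNA target and the arrays themselves bear on every value. Prdm2 read 69.0 ± 20.0 in the control and 46.1 ± 15.2 in the knockdown at its representing probe set, with overlapping values (log2 difference -0.51, limma adjusted p = 0.313), so a loss of its transcript did not pass. A second Prdm2 probe set read 73.0 ± 39.2 and 37.5 ± 14.9 (log2 difference -0.75, limma adjusted p = 0.475 over all probe sets), and a dim one, under 16 on every array, differed by 0.0975. The myoblast gene Des, desmin, read 977 ± 125 and 789 ± 147, with overlap. Myf5 and Myod1 were looked at as well, and they moved in opposite directions. Every knockdown array was below every control array for Myf5, which fell by 1.29 log2 units (limma adjusted p = 0.011). Its knockdown mean was 38.0% of the control mean. Myod1 stood 0.47 log2 units higher in the knockdown, but its groups overlapped and the test was not passed. Control array 3 had a Gapdh 5′ to 3′ signal ratio of 0.0992 while the other 5 lay between 0.704 and 1.14, and the Dap poly-A spike, an RNA added before labelling, read 38.8 to 39.9 on both arrays numbered 3 and 126 to 254 on the rest. Rab40b differed by 0.95 among the 4 arrays of higher spike and by 1.17 between the 2 of lower spike, and by 0.93 without control array 3. For Rab27b these values were -1.09, -0.76 and -1.11.

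Among Rabs of delivery to the surface and of secretion, Rab27b alone of 13 measured passed (7.69%, against 5.16% of all genes). Of the 13, 5 had both means under 16. The groups by site are small, so the counts of passing genes and of directions given for them are not read as results about those sites. Rab10, which carries GLUT4 vesicles and other exocytic cargo, read 791, 1222 and 567 in the control and 403, 569 and 422 in the knockdown. The knockdown mean was 54.0% of the control mean, but the groups overlapped narrowly and the gene did not pass (log2 difference -0.88, SE 0.229, limma adjusted p = 0.0928). It fell with a limma adjusted p of 0.043 with the filter on low values, 0.0423 with the intensity trend, 0.0258 with array weights and 0.0309 with the replicate block, and the adjusted p was 0.0863 to 0.292 when 1 array was left out. Its probe set 1422664_at did not overlap, at 385, 276 and 257 against 244, 199 and 181 (log2 difference -0.59, limma adjusted p = 0.142 over all probe sets). The remaining one, 1429296_at, spread from 23.9 to 528 within the control and differed by -0.39. The other GLUT4 Rabs did not pass. Rab8a differed by 0.0019 (175 ± 73.8 and 179 ± 28.9), Rab13 by -0.16 (144 ± 32.3 and 137 ± 33.1) and Rab14 by 0.20 (764 ± 69.7 and 903 ± 45.2). For Rab14 every knockdown array was above every control array (limma adjusted p = 0.384). The sign of the Rab8a difference turned in 8 of 18 alternative settings and that of Rab13 in 2. Rab8b, close in sequence to Rab8a, read 117, 119 and 66.2 against 157, 129 and 129, without overlap and without passing (log2 difference 0.35, limma adjusted p = 0.371).

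The 4 Rab3 genes, whose proteins act in regulated exocytosis, gave differences of either sign and none passed. Rab3a, the synaptic vesicle form, read 243, 218 and 253 in the control and 181, 216 and 174 in the knockdown at 1459980_x_at (log2 difference -0.39, limma adjusted p = 0.279). Its other probe set, 1422589_at, was dimmer, with means of 48.1 and 41.7, and overlapped (log2 difference -0.20, limma adjusted p = 0.54 over all probe sets). Rab3d, the form of exocrine and other secretory cells, read 72.5, 68.5 and 54.5 against 79.1, 72.7 and 93.2 (log2 difference 0.19), so that its groups lay apart by a narrow margin. Its 4 probe sets disagreed in sign, from -0.40 to 0.32. Rab3c was far below 16 at all 5 of its probe sets, yet at 4 of them every knockdown array was above every control array. At 1435047_at the readings were 0.29, 0.312 and 0.264 in the control and 5.37, 3.50 and 1.30 in the knockdown. With the offset of 16 the largest of these differences, at the representing probe set, was 0.37 (limma adjusted p = 0.22 over all genes), and values this low have no firm scale.

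Among late endosome and lysosome Rabs, 0 of 8 passed, against 5.16% of all genes. This group held the largest differences after those of Rab40b, Rab27b and Rab10. Rab7b, which is known for traffic from late endosomes to the trans-Golgi, read 85.7, 69.7 and 113 in the control and 51.6, 48.2 and 38.7 in the knockdown. The groups did not overlap (log2 difference -0.82, SE 0.223, limma adjusted p = 0.107). Its probe set 1435830_a_at did not overlap either, at 44.9, 44.1 and 50.7 against 28.7, 34.2 and 23.1 (log2 difference -0.53). Leaving out 1 array gave differences of -1.02 to -0.58 with limma adjusted p of 0.0432 (without control array 2) to 0.297, array weights gave 0.0299, and the difference was -0.50 among the arrays of higher spike and -1.46 between those of lower spike. Rab7, the main Rab of late endosome fusion with lysosomes, differed by 0.0059 at 824 ± 166 and 854 ± 120. Its other probe set, 1448159_at, differed by 0.44 with overlapping groups. Rab9, which returns mannose 6-phosphate receptors from late endosomes to the Golgi, moved the other way from Rab7b. It read 293, 168 and 189 in the control and 390, 401 and 357 in the knockdown, with no overlap, and the knockdown mean was 177% of the control mean (log2 difference 0.73, SE 0.191, limma adjusted p = 0.0971). Leaving out 1 array gave 0.53 to 0.91, with limma adjusted p from 0.0484 (without control array 1, the brightest of its controls) to 0.269. Rab24, linked to autophagy, read 152, 226 and 169 against 156, 131 and 180, with overlap (log2 difference -0.30). Rab32 and Rab38, of lysosome-related organelles, differed by 0.27 and -0.13 at intensities from 7.71 to 26.8. The other Rab38 probe set, with both means under 16, differed by 0.22.

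**Figure D3:**
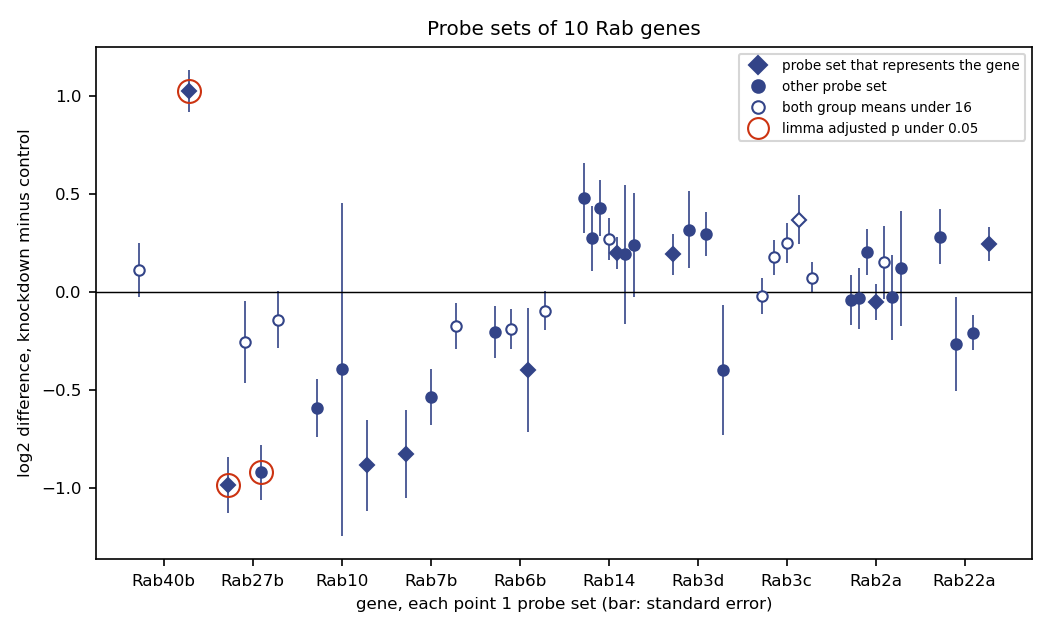
The log2 difference of knockdown minus control (y axis) at each probe set of 10 Rab genes (x axis), with bars of 1 standard error; diamonds represent the gene, open symbols have both group means under 16, and red rings mark a limma adjusted p under 0.05 over all probe sets. All probe sets of Rab27b, Rab10, Rab7b and Rab6b are below 0 and all 7 of Rab14 are above 0, whereas those of Rab3d, Rab2a and Rab22a lie on both sides.

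Of 8 early endosome Rabs 0 passed, against 5.16% of all genes. Of the 8, 6 differed upward, where 8919 of all 18193 genes did. All 3 Rab5 genes, which drive fusion of early endosomes, had higher knockdown means with overlapping groups at the representing probe set. Rab5c read 444, 199 and 216 against 446, 347 and 378 (log2 difference 0.43, limma adjusted p = 0.566), Rab5b differed by 0.30 and Rab5a by 0.18. The other Rab5b probe set, 1437446_at, differed by -0.06. Rab20, found on endosomes and phagosomes, read 21.8, 9.16 and 6.09 in the control and 22.9, 25.2 and 26.7 in the knockdown. The groups lay apart, but control array 1 was nearly as high as the knockdown (log2 difference 0.57, limma adjusted p = 0.231), and without that array the limma adjusted p was 0.0311 and the log2 difference 0.80. Leaving out any other array gave 0.41 to 0.59 with adjusted p up to 0.472, and an offset of 64 gave 0.22. Rab22a, which acts in sorting from early endosomes, read 139, 135 and 131 against 176, 171 and 178 at its representing probe set, a small difference with tight groups (log2 difference 0.25, limma adjusted p = 0.282). Of its 4 probe sets, 1451379_at and 1424504_at pointed downward, at -0.21 and -0.26. Rab31 and Rab21, the latter tied to integrin traffic, differed by 0.06 and -0.04.

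Of the 8 recycling endosome Rabs 0 passed, against 5.16% of all genes. In the gene fit 0 had an unadjusted p under 0.05, and the differences of the 8 ranged from -0.18 to 0.21. In the fit over all probe sets, some probe sets of Rab14, Rab11b and Rab4a had an unadjusted limma p under 0.05. All of those lay upward, and 11.7% of all probe sets were under 0.05. Rab11b differed by -0.09 at its representing probe set, by 0.29 at 1435253_at and by 0.30 at the dim 1439508_at. Rab11a, the main Rab of the recycling endosome, had means of 611 ± 51.5 and 574 ± 40.0 (log2 difference -0.16). Rab35 read 108, 162 and 119 against 126, 114 and 118, with the knockdown inside the control range (log2 difference -0.18, limma adjusted p = 0.668), and its difference was 0.0076 with array weights. Rab4a and Rab4b, of fast recycling, differed by -0.14 and 0.21. The other Rab4a probe set, 1418341_at, went the other way, by 0.23, with means of 22.5 and 29.4. Rab14 was above the control at all 7 of its probe sets, by 0.19 to 0.48, and none of the 7 passed. Its probe set 1419244_a_at read 246, 230 and 253 against 351, 312 and 399 (log2 difference 0.43, limma adjusted p = 0.285 over all probe sets).

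Among 16 Rabs of the endoplasmic reticulum and Golgi 0 passed, against 5.16% of all genes. Of the 16, 11 differed downward and 5 upward, where 9274 of all 18193 genes differed downward. Rab1b, which with Rab1a drives transport from the reticulum to the Golgi, read 126, 209 and 108 against 102, 91.9 and 109 and overlapped only through knockdown array 3 (log2 difference -0.53, SE 0.188, limma adjusted p = 0.225). Rab1a differed by -0.06, with 1097 ± 416 and 1024 ± 48.8. Rab6a, the common Golgi Rab of retrograde transport, read 668, 661 and 454 against 775, 778 and 706 with no overlap (log2 difference 0.30, limma adjusted p = 0.229), and the neuron-enriched Rab6b read 19.2, 34.0 and 46.9 against 12.4, 37.7 and 17.1 with broad overlap (log2 difference -0.40, limma adjusted p = 0.666). Rab30 and Rab36 lay below the control on every knockdown array, by -0.32 and -0.33, from control means of 13.4 and 20.3. Rab2a, with 7 probe sets, differed by -0.05 at the one that represents it and by -0.05 to 0.20 over all. Rab18, of lipid droplets, differed by -0.29 among the arrays of higher spike and by 0.86 between those of lower spike.

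Besides Rab40b, Rab40c and the dim Rab42 and Rab44, the last group held Rab23 and Rab28, which act at the cilium. Rab23, a restraint on Hedgehog signalling, read 71.7, 75.7 and 43.4 against 111, 96.5 and 74.6 and overlapped only through knockdown array 3 (log2 difference 0.41, limma adjusted p = 0.313). Rab28 differed by 0.27 with overlap. Over the whole family, 20 of the 38 genes with more than 1 probe set had differences of the same sign at all of them. That share was not counted over all genes, and 49 of the 132 Rab probe sets had both means under 16. Of all 132 probe sets 3 passed in the fit over probe sets, 1 up and 2 down, which is 2.27%, where 2.43% of all probe sets passed (1.42% up and 1.01% down). The 3 belong to Rab40b and Rab27b. At 22 of the 132 (16.7%) every knockdown array was above every control array and at 10 (7.58%) below, against 9.6% and 7.5% of all probe sets. An unadjusted limma p under 0.05 was found at 26 of the 132 (19.7%), against 11.7% of all probe sets.

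The machinery that turns Rabs on and off was examined as 5 lists of regulators, effectors and relatives, of which 132 of 140 listed genes were measured. Of these 2 rose and 5 fell, which is 5.30%, against 5.16% of all genes, and the median log2 difference was -0.008 against -0.004. Among 33 GEFs 2 fell and 0 rose (6.06%). Hps1, a subunit of the exchange factor for Rab32 and Rab38, read 135, 132 and 142 in the control and 74.7, 76.9 and 80.1 in the knockdown, tight groups that lay far apart (log2 difference -0.80, SE 0.12, limma adjusted p = 0.0132). Its partner Hps4 differed by -0.07. The adjusted p of Hps1 rose to 0.206 when the mean of its probe sets was used, and to 0.0716, 0.0554 and 0.0507 without knockdown array 1, 2 or 3. Dennd2a, a DENN domain GEF with activity on Rab9, fell from 106, 108 and 85.9 to 65.9, 50.1 and 59 (log2 difference -0.72, limma adjusted p = 0.0124). Its adjusted p was 0.0593 without control array 1, 0.0762 with an offset of 1, 0.0642 with ordinary statistics and 0.102 on the higher spike arrays. Rin2, a Rab5 exchange factor, had the largest difference of any GEF, 1.45, but its groups overlapped and it did not pass (58.8 and 189 on average, limma adjusted p = 0.142); it was singled out after its values were seen.

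Among 37 GAPs 1 rose and 1 fell (5.41%, against 5.16% of all genes). Tbc1d2b, a TBC domain GAP with activity on Rab22a, rose from 33.5, 53.1 and 26.2 to 102, 78.8 and 119 (log2 difference 1.07, SE 0.179, limma adjusted p = 0.0202). Its adjusted p was 0.0852 and 0.0586 without control array 1 or 3, and 0.0928 and 0.0741 without knockdown array 1 or 3. Usp6nl, a GAP of Rab5, fell from 90.2, 96.7 and 68.1 to 59.7, 64 and 55.9 (log2 difference -0.48, limma adjusted p = 0.0449), and that call was lost without any 1 of the 6 arrays, with adjusted p of 0.0573 to 0.167. The GLUT4 GAPs did not pass: Tbc1d1 differed by -0.02 (69.7 and 73.5 on average), with a sign that turned in 7 of 18 settings, and Tbc1d4 by 0.22 (46.2 and 59.7).

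**Figure D4:**
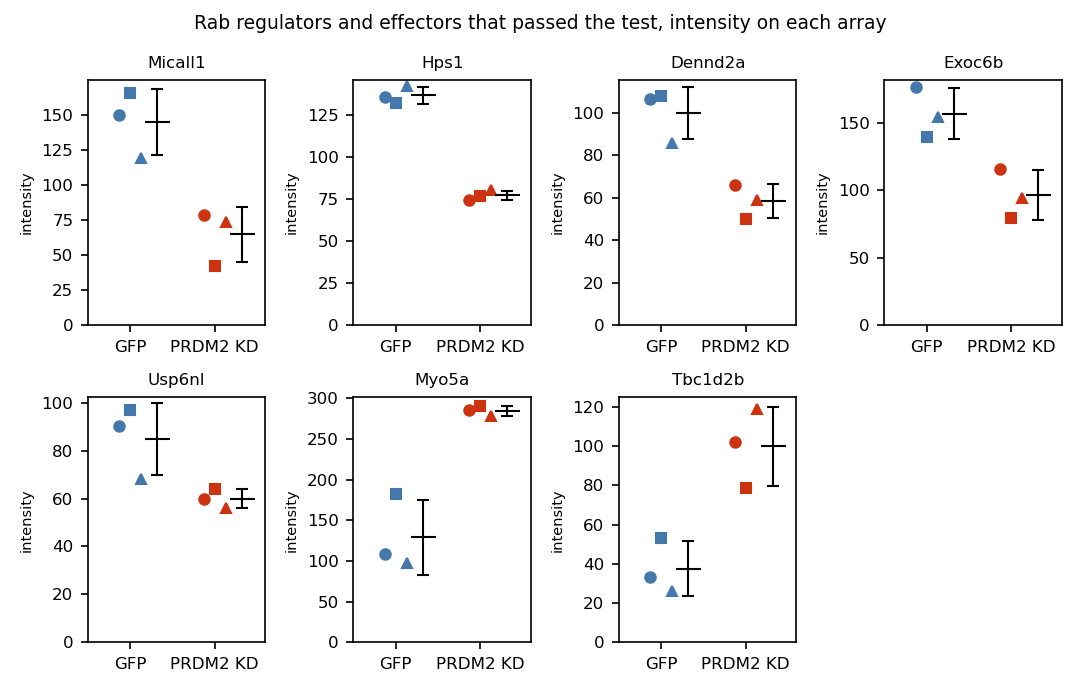
Deposited intensity (y axis, linear from 0) on each control (GFP, blue) and knockdown (PRDM2 KD, red) array for the 7 regulators and effectors that passed the test, with circles, squares and triangles for arrays 1, 2 and 3 and the mean and SD in black. Myo5a and Tbc1d2b are higher and the other 5 lower in the knockdown, and no group overlaps the other.

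Of 47 effectors 1 rose and 2 fell (6.38%, against 5.16% of all genes). Myo5a, the myosin V motor that Rab27a recruits to melanosomes through melanophilin and that also carries other Rab vesicles, rose from 108, 182 and 97.4 to 285, 291 and 278 (log2 difference 1.00, SE 0.175, limma adjusted p = 0.0239). Its adaptor Mlph lay at background, with means of 6.86 and 6.07. The Myo5a adjusted p was 0.0814 and 0.0729 without control array 1 or 3 and 0.0969, 0.0913 and 0.0881 without knockdown array 1, 2 or 3. Micall1, a scaffold of tubular recycling endosomes that binds Rab8a and Rab35, fell from 150, 166 and 119 to 78.4, 42.3 and 73.9 (log2 difference -1.10, SE 0.191, limma adjusted p = 0.0228). Without control array 1, 2 or 3 it had an adjusted p of 0.0852, 0.0591 or 0.0588, and without knockdown array 1 or 3 of 0.0523 or 0.0561. Exoc6b, an exocyst subunit that binds Rab11, fell from 177, 140 and 154 to 116, 79.1 and 94.4 (log2 difference -0.72, limma adjusted p = 0.0483), with adjusted p of 0.165 and 0.129 without control array 1 or 3 and 0.077, 0.141 and 0.155 without knockdown array 1, 2 or 3.

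Among genes for prenylation and GDP-bound Rabs 0 of 8 measured passed, against 5.16% of all genes. A list this small does not tell its share from that of all genes. Rabggta, the alpha subunit of the Rab prenyl transferase, read 103, 135 and 99.1 against 78.6, 61.7 and 93.7 with no overlap (log2 difference -0.54, limma adjusted p = 0.121). Rabac1, the prenylated Rab acceptor, read 878, 729 and 263 against 886, 902 and 942 (log2 difference 0.65, limma adjusted p = 0.458), where the groups lay just apart and control array 3 stood far below the other 5. Gdi2, which keeps GDP-bound Rabs in the cytosol, had means of 1679 and 1507 and differed by -0.22, or by 0.11 with the mean of its probe sets. Of 7 related small GTPases, also a small list, 0 passed, against the same 5.16% of all genes. The 2 with the largest differences, Rabl6 and Ift22, differed by -0.28 and -0.27.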

How the data were processed

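The values are deposited intensities on a linear scale, 1 for each probe set on each array. The submitters' processing notes name GCOS and PLIER, with no versions. Background correction and normalization by the authors are not given in the sources used here. Intensities of 45101 probe sets were taken as log2(intensity + 16) after leaving out 64 control probe sets and quantile normalized, and limma 3.58.1 in R 4.3.3 (lmFit, eBayes, Benjamini-Hochberg) compared 3 knockdown with 3 control arrays. Means ± SD are of deposited intensities, and log2 differences and folds are of normalized values. The annotation gave 1 symbol to 34945 probe sets, several to 932 and none to 9160, and the probe set with the highest mean represented each gene. A second fit took every probe set as a feature. Every Rab gene could be named, with values on each array for those that passed, for a fixed set tied to GLUT4 and fusion and for the 3 largest other differences each way; of each list, up to 4 passing members or the 2 largest differences. Array values of further Rab genes, and Hps4, Mlph and Rin2, were added after their values were seen. The code was tested on simulated data. The number of arrays limits the precision. Members, lists and tests were chosen with earlier results of these data known. Arrays sharing a replicate number correlated at 0.34, 0.0075 and 0.12 in their deviations from group means, so the number was not taken as a pairing.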

Additional observations from a re-analysis of the deposited data

How the results depend on the processing

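Rab40b passed in the gene fit under all 18 alternatives (limma adjusted p 0.00139 to 0.0484), and Rab27b kept its direction in all and its call in 13. Among Rab genes, 2 rose with an offset of 1; 2 fell with the filter on low values, with the intensity trend and with the replicate block, 3 fell with array weights, and 0 fell with ordinary statistics and on the 4 arrays of higher spike signal. Of Rab probe sets 1 fell without normalization, with a median shift, an offset of 1, the replicate block and the spike batch block, and 0 fell with an offset of 64; with ordinary statistics and on the higher spike arrays 0 rose and 0 fell. Of regulators and effectors 3 fell without normalization; 4 rose and 3 fell with a median shift; 1 rose and 1 fell with an offset of 1; 5 rose and 9 fell with array weights; 3 fell with the mean of probe sets; 1 rose and 3 fell with the replicate block; and 0 rose and 0 fell with ordinary statistics and on the higher spike arrays. The replicate block is not a known pairing here. Over the whole table limma called 211 genes with ordinary statistics, 359 on the higher spike arrays and 1615 with array weights, against 938. On the higher spike arrays 10 Rab genes, and with ordinary statistics also 10, had an unadjusted p under 0.05. Leaving out 1 array gave 1 to 3 Rab genes that rose and 0 to 2 that fell, 1 to 2 Rab probe sets that rose and 0 to 1 that fell, and 0 to 3 regulators that rose and 1 to 3 that fell. Of the genes and probe sets named here with a call, 0 changed sign. The uncalled Rab8a differed by -0.0033 with an offset of 64, -0.008 with array weights, -0.0026 with the mean of probe sets, -0.29 on the higher spike arrays and -0.18 to 0.24 leaving out 1 array. Tbc1d1 differed by 0.0612 without normalization, 0.0632 on the higher spike arrays, 0.0795 with a median shift, 0.0396 with the mean of probe sets and -0.0862 to 0.0248 leaving out 1 array. Rab13 and Rab35 stood at 0.0763 and 0.0076 with array weights, Rab13 at -0.36 to 0.0501 leaving out 1 array, and Gdi2 at 0.11 with the mean of probe sets. The cause of these shifts was not tested.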
